A study of Homo sapiens with 6 samples.

Results

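The genes described are the 77 named for proteins of the cytosolic ribosome, 46 of the large subunit and 31 of the small subunit, out of 57736 genes in the deposited count table. The rule uses names and not values: protein-coding genes called RPL or RPS with a number and at most a closing A or X, together with RPSA, RPLP0, RPLP1 and RPLP2. The rule leaves out FAU, whose ribosomal protein is made fused to a ubiquitin-like part, and RACK1, which are given further on. The cells were AALE, an established human line from the basal epithelium of the bronchus, immortalised with SV40 and hTERT and grown in a small airway growth medium. In 3 libraries the cells carried a lentiviral control vector, and in 3 they carried one for overexpression of NRG1, which encodes neuregulin, a ligand of ERBB receptors. Both groups were selected stable pools of transduced cells, not single clones, and the labels name neither the promoter that drives NRG1 nor separate cultures for the libraries. The p-values therefore reflect how far these libraries differ among themselves, a spread that may be technical.

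Ribosomal proteins assemble with ribosomal RNA in the nucleolus into a large subunit, which joins amino acids, and a small subunit, which reads the messenger RNA. Their messenger RNAs are among the most abundant of a growing cell and typically begin with a C followed by an unbroken run of C and T (U in the RNA), the 5′ terminal oligopyrimidine or TOP motif. Through this motif the kinase complex mTORC1 and the RNA-binding protein LARP1 govern how much of each such messenger RNA is translated. The libraries measured messenger RNA and not its translation, so that form of control is outside what these values can show.

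The start of the gene is shown first, since it is the feature the members share that their names do not give. RefSeq promoter entries on GRCh38.p14 were found for 62 of the 77 genes by symbol, each with 250 bases before and 50 after the annotated start. The windows below run from 10 bases before the annotated start to 20 bases from it, and the capitals mark the TOP-like tract, a C followed by at least 4 further C or T that begins within 5 bases of the start. The first 5 belong to genes described further on that have a tract, and the last 4 to genes that have none.
RPL37A (chr2:216498834-216498863, plus strand): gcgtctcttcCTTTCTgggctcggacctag
RPS7 (chr2:3575250-3575279, plus strand): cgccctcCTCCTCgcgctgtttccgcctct
RPL41 (chr12:56116623-56116652, plus strand): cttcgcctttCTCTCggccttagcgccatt
RPL7A (chr9:133348208-133348237, plus strand): attccctttcCTTTCTCTCTCCTCCCgccg
RPL39 (chrX:119791611-119791640, minus strand): ccgccagcttCCCTCCTCTTCCTTTCTCCg
RPS27A (chr2:55231893-55231922, plus strand): agtgacacacaagacccagactcttcccta
RPS15 (chr19:1438386-1438415, plus strand): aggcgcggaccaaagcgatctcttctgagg
RPL15 (chr3:23916535-23916564, plus strand): tggggcctgctggaggagcttcacgcagtc
RPS26 (chr12:56041908-56041937, plus strand): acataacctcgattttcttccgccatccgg

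Such a tract was present in 50 of the 62 promoters (80.65%), against 21.1% of all 35116 promoters in the RefSeq table and 22.05% of those of protein-coding genes. The share was alike in the subunits, at 31 of 38 large subunit genes (81.58%) and 19 of 24 small subunit genes (79.17%). A run of at least 8 C or T within 20 bases of the start was found in 52 of 62 (83.87%), against 17.52% of all promoters, and the median longest run there was 11 bases against 5. The longest of the tracts printed above was that of RPL39, at 19 bases. The genes without a tract by this definition can still start at another base in these cells, because the annotated start was not measured here.

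Other short motifs were searched on both strands of the whole entry. CTCTTTCC can lie inside a C and T tract, and a CCGGAAG can share its last letters with an AAGATGGC. CCGGAAG, a core of ETS family sites, was in 21 of 62 (33.87%) against 10.26% of all promoters. The exact letters CTCTTTCC, a fixed pyrimidine string, were in 9 (14.52%) against 3.04%, and AAGATGGC, a YY1 core, was in 6 (9.68%) against 2.89%. TATAAA, the core of the TATA box, was in 5 (8.06%) against 11.53%. Of the 21188 promoters of protein-coding genes alone, 12.94% hold CCGGAAG, 3.06% CTCTTTCC, 3.6% AAGATGGC and 9.29% TATAAA, so for TATAAA the members' share is close to that background. The longer windows of RPLP0 and RPS6 show these letters in place, with the motif and the tract in capitals.
RPLP0 (chr12:120201092-120201171, minus strand): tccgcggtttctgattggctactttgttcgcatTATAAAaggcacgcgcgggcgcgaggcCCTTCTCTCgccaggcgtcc
RPS6 (chr9:19380217-19380356, minus strand): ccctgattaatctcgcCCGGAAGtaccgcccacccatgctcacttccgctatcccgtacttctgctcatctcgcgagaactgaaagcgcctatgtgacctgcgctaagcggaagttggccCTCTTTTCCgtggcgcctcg
In RPLP0 the TATAAA begins 27 bases before the start, and in RPS6 the CCGGAAG begins 104 bases before it. A match is a string of letters and was not tested as a site of binding.

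Total expected counts, the RSEM estimate of reads per gene, ran from 8612234 to 13207620 per library. NRG1 (ENSG00000157168) was at 11.6, 7.87 and 12.3 TMM-scaled CPM (counts relative to the scaled library total) in control libraries 1 to 3. It was at 6647, 3854 and 3781 CPM in NRG1 libraries 1 to 3, a rise of 8.80 on the log2 scale (SE 0.378, adjusted p = 0.00012 by the quasi-likelihood test of edgeR, adjusted by Benjamini-Hochberg over all genes tested). Control library 3 and NRG1 library 1 stood apart from the others of their groups over all genes, so the main results are also given without them. The chi-square per gene between 2 libraries, near 1 where they differ by sampling alone, was 55.26 and 64.79 for control library 3 against the other controls, which gave 18.58 between them. It was 36.81 and 42.01 for NRG1 library 1 against NRG1 libraries 3 and 2, which gave 2.65 between them, above sampling noise but by far the closest pair. The basal markers KRT5, KRT14, KRT17, TP63 and ITGA6 were present in every library. Their summed level was 7974 to 11683 CPM in control and 5185 to 6365 CPM in NRG1. KRT14 and KRT17 were lower in every NRG1 library, while the groups overlapped in KRT5, TP63 and ITGA6. Of 4 fibroblast markers COL1A1 and DCN had enough counts to be tested and were lower in every NRG1 library, and the summed level of the 4 was 41.5 to 66.1 CPM in control and 19.5 to 27.8 CPM in NRG1. The part of either marker list in the values of the ribosomal protein genes was not tested. Of the leukocyte markers CD3E was at 0 in all 6 libraries and PTPRC at most 0.154 CPM, while CD68, which other cells also express, was at 23.9, 18.9 and 32.1 CPM in control and 24.8, 5.63 and 3.71 CPM in NRG1. The endothelial marker CDH5 was at 0 and VWF at 0.118 to 1.12 CPM. The summed level of FOXJ1, SCGB1A1 and MUC5AC of other airway epithelial cells was 13.3 CPM in control library 3 and 30.1 CPM in NRG1 library 3, and at most 0.30 CPM in the others. The part of these markers was not tested either.

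The ribosomal protein genes were on balance slightly higher in the NRG1 libraries. Of the 77 genes, 68 had a fitted log2 fold change above 0 (88.3%), against 7716 of all 15421 genes tested (50%). The median log2 fold change was 0.178, or 13.1% higher, with a range from -0.32 for RPL7A to 0.46 for RPL37A, while the median of all genes tested was 0.00. All 77 passed the filter on low counts, so these figures cover every member. In 38 members (49.4%) all 3 NRG1 libraries lay above all 3 controls, against 9.36% of all genes tested. In 3 members (RPL7A, RPS15 and RPL39, 3.9%) all 3 lay below, against 10.2% of all genes. These shares are not like for like, since groups come apart at a smaller shift where the spread within a group is smaller. The median within-group SD was 0.101 on the log2 scale for members and 0.315 over all genes tested.

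No member passed the test across all genes. The lowest adjusted p of a member was 0.351 in edgeR and 0.104 in DESeq2. At an unadjusted p under 0.05 in edgeR there were 5 members, all higher in NRG1 (RPL37A, RPS27A, RPS7, RPS15A and RPL14), and 0 lower. Over all genes 5.08% were higher and 6.72% lower at that unadjusted level, and at an adjusted p under 0.05 the shares were 0.00648% higher and 0.00% lower. DESeq2 called 1.36% of all genes and none of the members. The count of members at an unadjusted p under 0.05 is near the background, while the counts by direction and by separated groups lie away from it. The members moved together within a library, however, so they are not independent counts. The number of members above the control mean was 13, 64 and 51 in control libraries 1 to 3. It was 62, 68 and 70 in NRG1 libraries 1 to 3. No test of the list was made.

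The expression of these genes varied little between libraries of a group. The median within-group SD of a member was 0.101 on the log2 scale, from 0.040 for RPL5 to 0.30 for RPS29, against a median of 0.315 over all genes tested. The median SE of a member's log2 fold change was 0.142, which is close to the median change itself. This SE comes from edgeR's quasi-likelihood F statistic, which also draws on the spread of other genes. It is therefore not set by a member's own spread alone, as in RPL5 (within-group SD 0.040, SE 0.135). Counting error was small beside the median SE, because the lowest expected count of any member in any library was 1118 (RPS26), where it amounts to 2.99%.

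**Figure D1:**
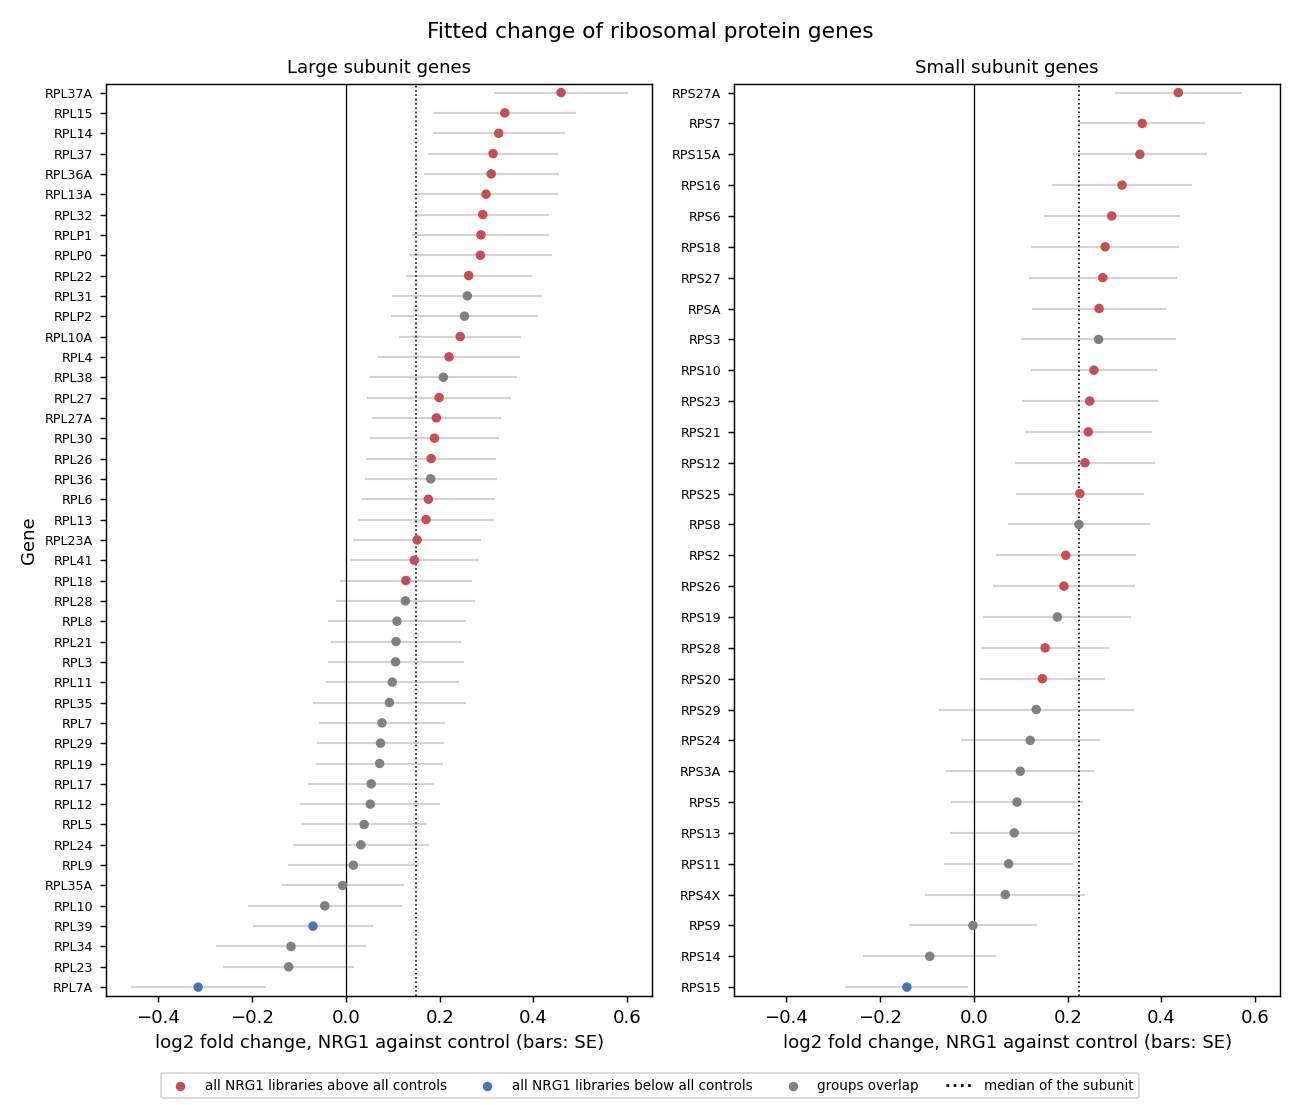
Fitted log2 fold change of NRG1 against control (horizontal axis) for large subunit genes (left) and small subunit genes (right), with the SE as a bar and the dotted line at the subunit's median (0.149 and 0.224). Most points lie right of 0, those in red (38 genes) have all NRG1 libraries above all controls, and those in blue (RPL7A, RPL39 and RPS15) have all of them below.

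In control libraries 1 to 3 the members together took 6.195%, 7.095% and 6.471% of all expected counts. In NRG1 libraries 1 to 3 they took 6.869%, 7.574% and 7.364%. The means were 6.587% ± 0.461 in control and 7.269% ± 0.362 in NRG1 (SD, n = 3 each), and the groups overlapped, since control library 2 lay above NRG1 library 1. These are shares of a library. In bulk RNA a change in the amount per cell cannot be told apart from a change in the rest of the RNA.

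Relative to the mean of the controls, the median member was at -0.088, 0.072 and 0.018 on the log2 scale in control libraries 1 to 3. It was at 0.195, 0.200 and 0.124 in NRG1 libraries 1 to 3, so that the 3 NRG1 values lay above the 3 control values. The median of all tested genes stayed between -0.013 and 0.006 in the 6 libraries. Control library 1 was the lowest of the 6 for 49 members, and NRG1 libraries 1 and 2 were the highest for 32 and 29.

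**Figure D2:**
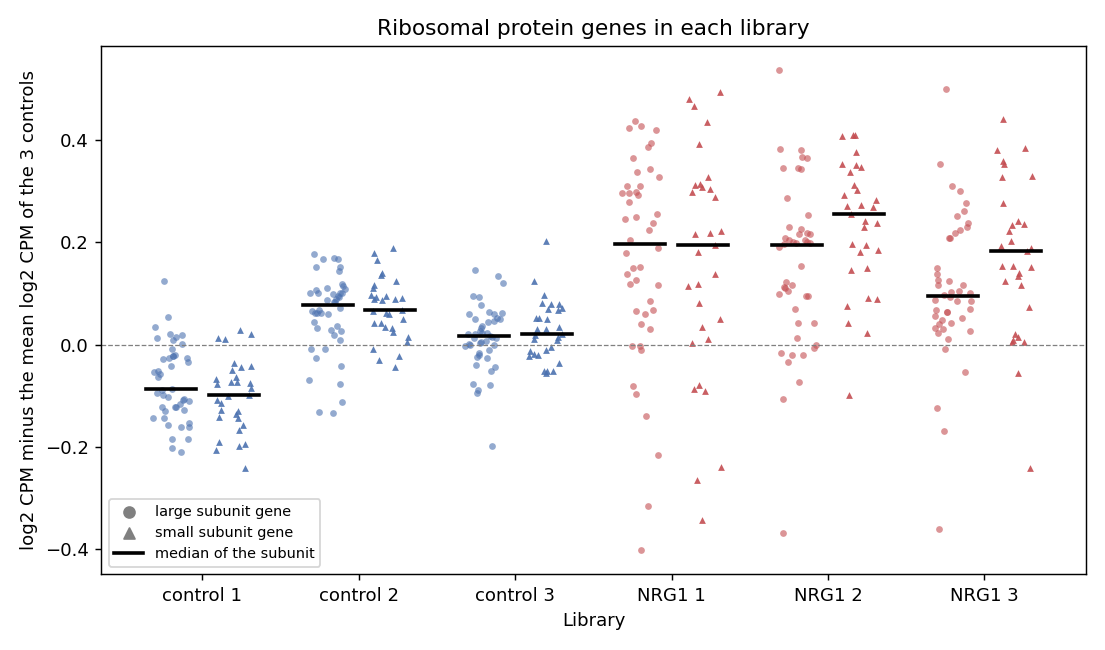
Each point is 1 ribosomal protein gene in 1 library, as its log2 CPM minus the mean log2 CPM of the 3 controls (vertical axis), with circles for the large subunit, triangles for the small subunit and a black line at each median. The NRG1 medians lie at 0.095 to 0.256 and the control medians at -0.098 to 0.077, and of the NRG1 libraries the first has the widest scatter (SD 0.205).

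The SD over the 77 genes of this log2 difference from the control mean was 0.205, 0.151 and 0.147 in NRG1 libraries 1 to 3, so the members were spread most widely in NRG1 library 1. In NRG1 libraries 1 to 3 respectively, 53, 60 and 51 members lay above all 3 controls, against 28.3%, 28.8% and 28.2% of all tested genes. In the same order 10, 3 and 6 members lay below all 3 controls, against 30.1%, 28.1% and 28.6% of all genes.

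Small subunit genes had the larger median difference. The median log2 fold change was 0.224 for the small subunit and 0.149 for the large, a difference of -0.075 (large minus small). The large minus small difference of medians was 0.011, 0.010 and -0.005 in control libraries 1 to 3, 0.001 in NRG1 library 1, and -0.062 and -0.087 in NRG1 libraries 2 and 3, so it was seen in those 2 libraries only. They were also the closest pair over all genes (chi-square per gene 2.65), so they are not clearly 2 separate observations. The pooled within-group SD of this difference over libraries was 0.033. The summed CPM of large over small subunit genes was 1.525, 1.482 and 1.480 in the controls and 1.504, 1.408 and 1.400 in NRG1. Its means were 1.496 ± 0.025 and 1.437 ± 0.058 (SD, n = 3 each), and NRG1 library 1 lay inside the control range. Without control library 3 the difference of medians was -0.041 and without NRG1 library 2 it was -0.038.

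RPL37A (ENSG00000197756, on chromosome 2), which encodes a zinc-binding protein of the large subunit, showed the largest difference. Its level was 554, 647 and 613 CPM in control libraries 1 to 3 and 765, 875 and 853 CPM in NRG1 libraries 1 to 3. The lowest NRG1 library thus lay above the highest control. The log2 fold change was 0.46 (SE 0.142; adjusted p = 0.351 in edgeR), a fold of 1.375. When control library 3 and NRG1 library 1 were left out it was the 1 member that edgeR called (log2 fold change 0.52, adjusted p = 0.045), in a comparison of 2 against 2 that called 9.84% of all genes tested (5.07% of all genes tested as higher). Those p-values are too small by an unknown amount, because libraries were removed for their distance from the rest.

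RPL14, RPL37 and RPL15 followed among the large subunit genes. RPL14 was at 617, 716 and 666 CPM in control and 894, 793 and 819 CPM in NRG1 (log2 fold change 0.33, SE 0.141). RPL37, another zinc-binding protein, was at 617, 714 and 651 CPM in control and 828, 858 and 778 CPM in NRG1 (0.31, SE 0.139). RPL15, a core protein that binds ribosomal RNA, was at 1001, 1064 and 840 CPM in control and 1266, 1242 and 1167 CPM in NRG1 (0.34, SE 0.152). In each of these genes the groups did not overlap, and the adjusted p lay between 0.421 and 0.432 in edgeR.

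Among small subunit genes RPS27A (ENSG00000143947, on chromosome 2) came first. It encodes ubiquitin fused to a ribosomal protein, and the fusion is cut after translation to release both. Its level was 732, 826 and 774 CPM in control and 1073, 1030 and 1054 CPM in NRG1, with no overlap (log2 fold change 0.44, SE 0.136; adjusted p = 0.352 in edgeR). It made up 1.187%, 1.209% and 1.173% of the members' summed CPM in control and 1.467%, 1.372% and 1.454% in NRG1. This gene is 1 of the 12 with a promoter entry and no tract at the annotated start.

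RPS7, RPS15A and RPS16 had the next smallest p-values. RPS7, which can bind the p53 regulator MDM2 outside the ribosome, was at 611, 666 and 605 CPM in control and 766, 833 and 816 CPM in NRG1 (log2 fold change 0.36, SE 0.134). RPS15A was at 501, 618 and 575 CPM in control and 699, 747 and 718 CPM in NRG1 (0.35, SE 0.143). RPS16, whose tail reaches toward the transfer RNA in the decoding groove, was at 499, 588 and 570 CPM in control and 768, 665 and 630 CPM in NRG1 (0.32, SE 0.15). All 3 had groups that did not overlap, with adjusted p between 0.387 and 0.443 in edgeR.

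**Figure D3:**
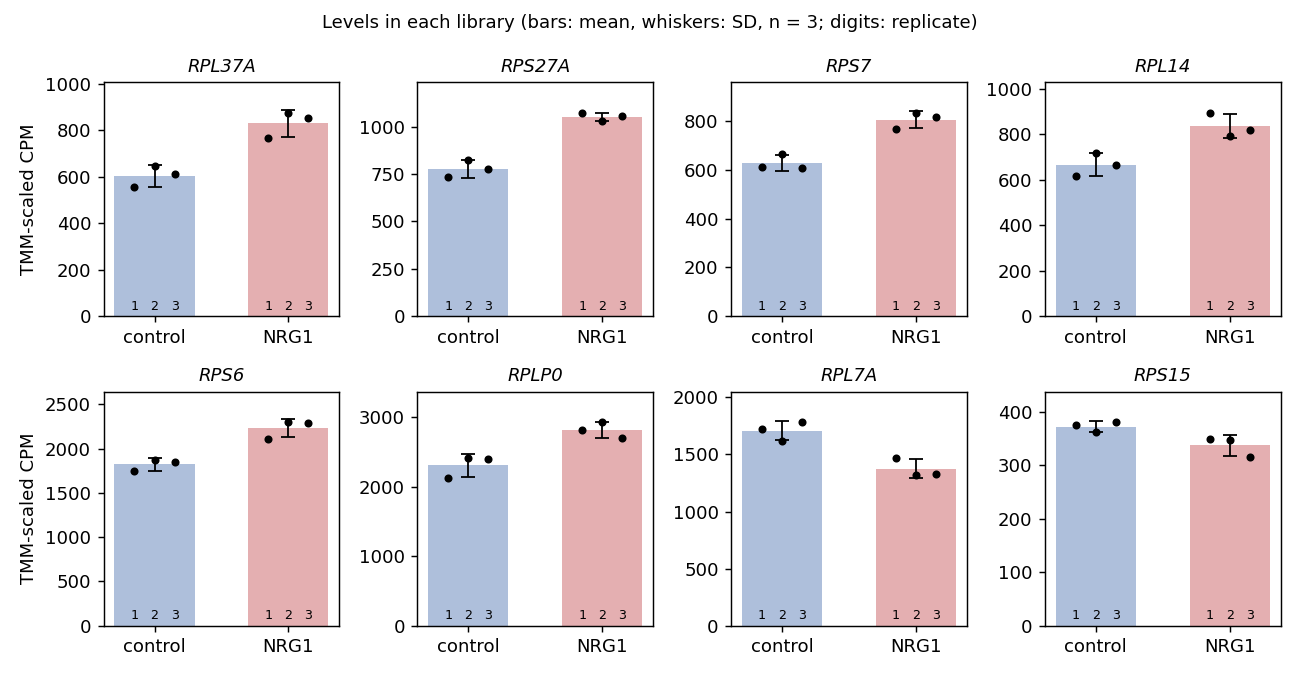
TMM-scaled CPM (vertical axes, starting at 0) of 8 ribosomal protein genes in each of the 3 control and 3 NRG1 libraries, with bars for the mean, whiskers for the SD and digits for the replicate below each point. RPL37A, RPS27A, RPS7, RPL14, RPS6 and RPLP0 have every NRG1 point above every control point, and RPL7A and RPS15 have every NRG1 point below.

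The stalk of the large subunit, which recruits the GTPases that drive translation, is built from RPLP0, RPLP1 and RPLP2, with RPL12 at its base. RPLP0, the scaffold, was at 2119, 2406 and 2402 CPM in control and 2822, 2927 and 2703 CPM in NRG1 (log2 fold change 0.29, SE 0.153). RPLP1 was at 1008, 1168 and 1136 CPM against 1337, 1435 and 1273 CPM (0.29, SE 0.146), and for both the groups did not overlap. RPLP2 was at 391, 500 and 466 CPM in control and 601, 520 and 495 CPM in NRG1 (0.25, SE 0.157), where NRG1 library 3 lay below control library 2. RPL12 was at 775, 979 and 900 CPM against 879, 947 and 924 CPM (0.05, SE 0.149), inside the control range in all 3 NRG1 libraries.

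RPL5 and RPL11, the partners of 5S ribosomal RNA that also bind MDM2, were among the genes that differed little. RPL5 was at 1178, 1211 and 1164 CPM in control and 1175, 1219 and 1257 CPM in NRG1 (log2 fold change 0.04, SE 0.135). It had the smallest within-group spread of all members. RPL11 was at 780, 840 and 827 CPM in control and 966, 815 and 839 CPM in NRG1 (0.10, SE 0.142), with only NRG1 library 1 above the controls.

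RPS6, the small subunit protein that S6 kinases phosphorylate downstream of mTORC1, was higher in every NRG1 library. Its level was 1743, 1875 and 1847 CPM in control and 2115, 2299 and 2288 CPM in NRG1 (log2 fold change 0.29, SE 0.145; adjusted p = 0.454 in edgeR).

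A set of 5 other genes encodes ribosomal proteins with known second roles. It is not a full list, since RPL5, RPL11 and RPS7, which also bind MDM2, are not in it. Those genes had log2 fold changes of 0.04, 0.10 and 0.36. The median log2 fold change of RPS3, RPSA, RPL13A, RPS27A and RPL22 was 0.267. RPS27A was highest at 0.44 and the other 4 lay between 0.26 and 0.30. All NRG1 libraries lay above all controls in 4 of the 5, against 49.4% of all members and 9.36% of all genes tested. RPSA, also known as a laminin receptor, was at 1368, 1502 and 1360 CPM in control and 1749, 1682 and 1657 CPM in NRG1 (0.27, SE 0.142). RPL13A, which can silence inflammatory messenger RNAs after leaving the ribosome, was at 1260, 1576 and 1395 CPM in control and 1740, 1782 and 1683 CPM in NRG1 (0.30, SE 0.153).

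RPL22, a protein with roles in T cell development, was at 409, 434 and 384 CPM in control and 517, 469 and 487 CPM in NRG1 (log2 fold change 0.26, SE 0.134). RPS3, which also has a role in DNA repair, was the exception in this set. It was at 1536, 1668 and 1660 CPM in control and 1632, 2102 and 2115 CPM in NRG1 (0.27, SE 0.165). NRG1 library 1 lay inside the control range and the other NRG1 libraries lay above it.

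The X-linked members differed from each other. RPL36A was at 286, 366 and 329 CPM in control and 399, 413 and 403 CPM in NRG1 (log2 fold change 0.31, SE 0.144), with no overlap. RPL39, a small protein that lines the exit tunnel, was at 471, 483 and 477 CPM in control and 433, 470.4 and 460 CPM in NRG1 (-0.07, SE 0.128). Its NRG1 values were all below the controls, in NRG1 library 2 by a margin of less than 1 CPM.

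RPS4X and RPL10, the other X-linked members, split the NRG1 libraries. RPS4X was at 1676, 1691 and 1621 CPM in control, at 1409 CPM in NRG1 library 1 and at 1905 and 1913 CPM in NRG1 libraries 2 and 3 (log2 fold change 0.07, SE 0.171). RPL10, needed for the last steps of large subunit maturation, was at 1206, 1335 and 1305 CPM in control and 1029, 1372 and 1325 CPM in NRG1 (-0.05, SE 0.164). Without NRG1 library 1 the log2 fold change of RPL10 was 0.08, and under upper-quartile scaling it was 0.00.

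RPL7A (ENSG00000148303, on chromosome 9) lay furthest the other way. This large subunit protein gene, which carries small nucleolar RNAs in its introns, was at 1726, 1620 and 1782 CPM in control and 1471, 1323 and 1330 CPM in NRG1. All 3 NRG1 libraries were below all controls (log2 fold change -0.32, SE 0.144; adjusted p = 0.436 in edgeR). Its share of the members' summed CPM was 2.797%, 2.369% and 2.701% in control and 2.011%, 1.762% and 1.835% in NRG1. It has a C and T tract of 16 bases from the start, and any part of the tract in its level was not tested.

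RPS15, a protein of the small subunit head, is named after its values were seen, as are RPL7A above and RPL23, RPS14, RPL34, RPS29 and RPL35. RPS15 was at 376, 362 and 381 CPM in control and 350, 348 and 315 CPM in NRG1 (log2 fold change -0.14, SE 0.131), without overlap. RPL23 was at 847, 709 and 780 CPM in control and 735, 722 and 691 CPM in NRG1 (-0.12, SE 0.14), where only NRG1 library 3 was below the controls. RPS14 was at 709, 750 and 743 CPM against 611, 745 and 707 CPM (-0.09, SE 0.142).

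In RPS29 and RPL34, NRG1 library 1 differed from the other NRG1 libraries. RPS29, a zinc-binding small subunit protein, was at 303, 382 and 332 CPM in control, 266 CPM in NRG1 library 1, and 416 and 433 CPM in NRG1 libraries 2 and 3. RPL34 was at 318, 346 and 305 CPM in control, 244 CPM in NRG1 library 1, and 319 and 330 CPM in the other NRG1 libraries. Both genes were thus below all controls in NRG1 library 1 and not in NRG1 libraries 2 and 3.

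RPL35 showed the opposite order. It was at 530, 537 and 554 CPM in control, 695 CPM in NRG1 library 1, and 538 and 496 CPM in NRG1 libraries 2 and 3. With control library 3 and NRG1 library 1 left out, the median log2 fold change of all members was 0.176 and 69 of 77 were above 0, so the median does not rest on these libraries. The large minus small difference was then -0.068.

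Members with and without a TOP-like tract had similar medians. The 50 members with a tract had a median log2 fold change of 0.20, with 44 above 0. The 12 with a promoter entry and no tract had a median of 0.15, with 10 above 0, and the 15 without an entry had a median of 0.15, with 14 above 0. RPL37A and RPL7A, the ends of the whole range, both have a tract.

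Levels can be compared between genes only per length, and were divided by the length in kb of 1 principal protein-coding transcript of GENCODE 29. The median member was at 1160 CPM per kb of transcript. RPS18, in the head of the small subunit, had the highest level on this scale, at 2540, 3167 and 3051 CPM per kb in control and 3378, 3606 and 3647 CPM per kb in NRG1. RPL41, the shortest ribosomal protein, followed at 1987, 2203 and 2006 CPM per kb in control and 2252, 2365 and 2237 CPM per kb in NRG1. RPS2, which lies at the entry of the messenger RNA channel, had a mean of 2121 CPM per kb and RPLP0 one of 2104. Per kb of coding sequence RPL41 was instead first at 13600, with RPS18 at 4344. The coding part of RPL41 is 75 bases of a transcript of 469.

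These neighbours do not differ beyond their spread over the libraries, except that RPS18 stood above the rest in each library per kb of transcript. In the difference between groups, RPS18 (1557, 1941 and 1870 CPM in control and 2071, 2210 and 2236 CPM in NRG1) had a log2 fold change of 0.28 (SE 0.158). RPL41 had one of 0.15 (SE 0.137) and RPS2 one of 0.20 (SE 0.149), all without overlap of the groups.

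The lowest levels per kb of transcript depended on the transcript model. RPL37 had a mean of 96.4 CPM per kb on a model of 7686 bases, RPL27A one of 186 on 4916 bases, and RPL37A one of 197 on 3647 bases. Per kb of coding sequence the same genes were at 2546, 2061 and 2601, above the median of 1690. RPL27A itself was at 802, 894 and 865 CPM in control and 1014, 997 and 917 CPM in NRG1 (log2 fold change 0.19, SE 0.138), with no overlap.

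RPS26 and RPS28 of the small subunit were low on both scales as counted. For RPS28 this depends on how shared reads were split, since pseudogenes held 55.8% of the counts of the gene and its copies. RPS26, which touches the messenger RNA upstream of the decoding site, had a mean of 198 CPM per kb of transcript and 358 per kb of coding sequence, the lowest of all members on the latter scale. It was at 117, 118 and 111 CPM in control and 151, 123 and 121 CPM in NRG1 (log2 fold change 0.19, SE 0.151). RPS28 had a mean of 130 CPM per kb of transcript and 832 per kb of coding sequence, and was at 152, 176 and 162 CPM in control and 176.3, 187 and 181 CPM in NRG1 (0.15, SE 0.136). Both had NRG1 libraries above all controls, for RPS28 by less than 1 CPM between NRG1 library 1 and control library 2.

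**Figure D4:**
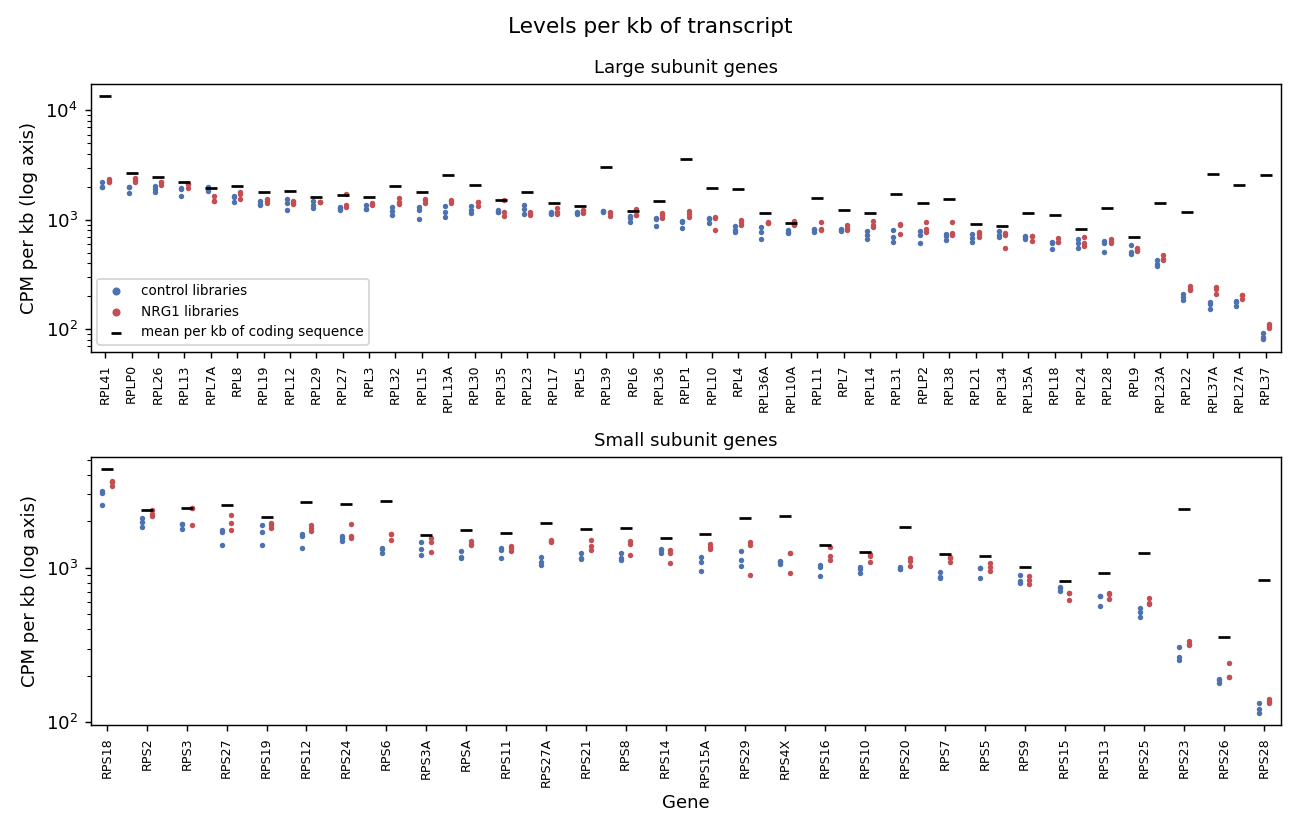
CPM per kb of transcript (log axis) of large subunit genes (top) and small subunit genes (bottom) in the control libraries (blue) and NRG1 libraries (red), ordered by mean level, with a black dash at the mean per kb of coding sequence. RPS18 and RPL41 lead their subunits, and RPL37, RPL27A and RPL37A are lowest of the large subunit per kb of transcript but not per kb of coding sequence.

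RPS28 is also the member most exposed to its copies. Ribosomal protein genes have very many processed pseudogenes, of which 1576 were in the count table and 823 had a count above 0, and reads that fit both a gene and its copy are shared by estimate. Pseudogenes held a median of 0.834% of the counts of a member and its copies, and under 1% for 39 members. The share was over 10% for 7 members, with the highest in RPS28 (55.8%), RPL21 (38.5%), RPL23A (29.3%), RPL7 (16.3%) and RPL13A (12.8%). The levels of members with such shares are uncertain.

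With the pseudogene counts added to their members, the median log2 fold change of all members was 0.181 and 68 remained above 0. That of RPL21 went from 0.11 to 0.21 and that of RPS28 from 0.15 to 0.11. All pseudogenes together took between 0.264% and 0.346% of a library's expected counts. Readthrough genes that contain a member as a part add a further uncertainty for RPL17, RPL36A and RPS10. RPL17-C18orf32 was at 46.8 to 89.1 CPM, RPL36A-HNRNPH2 at 19.0 to 72.8 CPM and RPS10-NUDT3 at 74.0 to 97.9 CPM.

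Among relatives outside the naming rule, FAU was the only one of the 9 tested whose groups did not overlap. FAU encodes a small subunit protein fused to a ubiquitin-like protein, and was at 240, 252 and 263 CPM in control and 376, 327 and 321 CPM in NRG1 (log2 fold change 0.44, SE 0.138; adjusted p = 0.356 in edgeR). RACK1, a scaffold on the small subunit, was at 1288, 1351 and 1270 CPM against 1260, 1399 and 1347 CPM (0.04, SE 0.139).

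The paralogs showed no such separation. RPL22L1 was at 100, 105 and 62.5 CPM in control and 87.0, 81.9 and 86.6 CPM in NRG1 (log2 fold change -0.07, SE 0.212). The log2 fold change was -0.27 for RPL39L (SE 0.257), and RPS27L had one of 0.41 (SE 0.319), RPL36AL one of 0.29 (SE 0.232), RPL7L1 one of 0.10 (SE 0.162) and RPL26L1 one of 0.08 (SE 0.222). The groups overlapped in each. RPL3L, typical of muscle, had at most 9 expected counts in a library, and RPL10L, typical of testis, had 1 in all libraries together, so neither was tested.

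A list of translation factors and other genes, such as TPT1, NPM1 and HNRNPA1, drawn up as having TOP motifs had a similar median. Their own starts were not searched for a tract here. Of the 20 genes 19 (95.0%) were above 0, against 50% of all genes tested, with a median log2 fold change of 0.204. In 11 (55.0%) the groups did not overlap, all higher, against 9.36% of all genes tested. EIF4A2, an RNA helicase of translation initiation, was at 301, 249 and 236 CPM in control and 435, 411 and 419 CPM in NRG1 (0.69, SE 0.147; adjusted p = 0.252 in edgeR). DESeq2 called it, as the only gene of the list. TPT1 (0.54, SE 0.17) and PABPC1, the poly(A)-binding protein (0.42, SE 0.146), also had groups without overlap.

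Genes that build the ribosome gave a mixed picture. Of 39 ribosome biogenesis genes, 30 (76.9%) were above 0, against 50% of all genes tested, with a median of 0.144. Wholly above the controls lay 5 (12.8%), near the 9.36% of all genes. Wholly below lay 1 (2.56%), against 10.2% of all genes. NCL, which encodes nucleolin, was at 754, 612 and 554 CPM in control and 1172, 821 and 875 CPM in NRG1 (log2 fold change 0.58, SE 0.194). NOP58 (0.46, SE 0.182) and RRS1 (0.82, SE 0.41) had the next smallest p-values. Relative to the control mean the list's median was 0.397 in NRG1 library 1 and -0.062 and 0.026 in NRG1 libraries 2 and 3, unlike that of the ribosomal proteins, which was similar in NRG1 libraries 1 and 2.

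The 14 genes of RNA polymerase I and its factors were split evenly, 7 above 0 and 7 below, with a median of 0.049. TAF1D (log2 fold change 0.45, SE 0.178), POLR1A (0.33, SE 0.173) and TAF1A (-0.67, SE 0.401) had the smallest p-values. The groups overlapped in POLR1A and TAF1A and not in TAF1D. TAF1A was at 26.4 CPM in control library 3 and at 9.16 to 11.7 CPM in the other libraries. The 24 genes of the mTORC1 and MYC axis were also split evenly, 12 and 12, with a median of -0.007. In it LARP1 was at 385, 372 and 287 CPM in control and 448, 440 and 440 CPM in NRG1 (0.35, SE 0.156). The S6 kinase gene RPS6KB2 differed by 0.52 on the log2 scale (SE 0.167) and SESN3, which encodes an inhibitor of mTORC1, by -0.64 (SE 0.229). The groups overlapped in SESN3 and not in LARP1 or RPS6KB2. MYC, a known activator of ribosome production and named after its values were seen, was at 271, 196 and 252 CPM in control, 345 CPM in NRG1 library 1, and 135 and 132 CPM in NRG1 libraries 2 and 3 (-0.23, SE 0.364).

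The mitochondrial ribosome, a separate particle with its own proteins, had a median log2 fold change of 0.129 over 76 genes. Of these 54 (71.1%) were above 0, against 50% of all genes tested. In 6 of them (7.89%) the groups lay apart with NRG1 higher, a share below the 9.36% of all genes, and in 2 (2.63%) with NRG1 lower. Relative to the control mean the median of this list was 0.31 in NRG1 library 1, and 0.019 and 0.043 in NRG1 libraries 2 and 3, which lie inside the control range of -0.122 to 0.074. MRPS5 (0.42, SE 0.152), MRPL11 (0.42, SE 0.181) and MRPS2 (-0.39, SE 0.146) had the smallest p-values. The 74 subunit genes of oxidative phosphorylation had a median of 0.126, with 52 (70.3%) above 0. In 12 (16.2%) the NRG1 libraries were wholly higher, against 9.36% of all genes. The list's median in the NRG1 libraries was 0.202, 0.104 and 0.071, against -0.177 to 0.17 in the controls. COX5B (0.47, SE 0.149), ATP5MG (0.51, SE 0.192) and NDUFS1 (0.44, SE 0.183) had the smallest p-values.

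The proteasome, another abundant complex made by most cells, had 12 of 30 subunit genes above 0 and a median of -0.029, and in none did the groups lie apart. Its libraries were spread on both sides. Relative to the control mean the list's median was 0.167, -0.177 and 0.00 in control libraries 1 to 3, 0.318 in NRG1 library 1, and -0.25 and -0.249 in NRG1 libraries 2 and 3. PSMD12 (log2 fold change 0.38, SE 0.258), PSMB7 (-0.27, SE 0.206) and PSMA7 (0.19, SE 0.151) had the smallest p-values. The median within-group SD was 0.273 for these genes and 0.101 for the cytosolic ribosomal proteins, and groups come apart at a smaller shift where this spread is smaller. No gene of these lists passed edgeR's adjusted threshold.

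**Figure D5:**
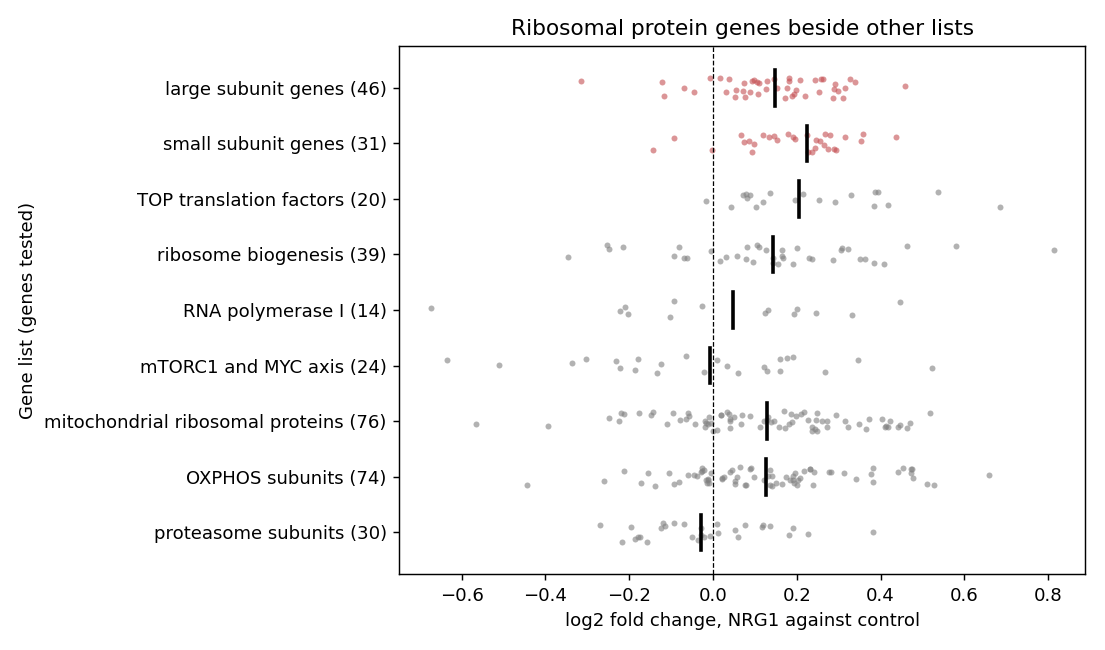
Log2 fold change of NRG1 against control (horizontal axis) of every tested gene in each list (points), with a black line at the list's median and the number of genes in brackets. The 2 ribosomal protein subunits and the list labelled TOP translation factors have medians of 0.149 to 0.224 and few genes below 0. The medians of the mTORC1 and MYC axis and the proteasome are -0.007 and -0.029.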

How the data were processed

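PolyA RNA of 3 control-vector and 3 NRG1-vector libraries was made with a TruSeq kit that does not mark strand, per the labels' protocols. The authors deposited expected counts, estimated per gene and not normalized. RSEM 1.3.0, STAR 2.5.3a and the hg19 build are named in the submitters' processing notes, with no roles. No annotation is given in the sources used here. Another deposited table covers 14759 genes in log2 values, which equalled TMM log2 CPM computed here (prior count 0.25). The design had assumed linear CPM there, so powers of 2 were taken before adding pseudocounts of 1 and 0.25.

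Expected counts were rounded and fitted with edgeR 4.0.16 in R 4.3.3 (TMM, filterByExpr, quasi-likelihood test, 15421 genes, Benjamini-Hochberg, adjusted p under 0.05, no covariate). Sample titles gave groups and replicate numbers. CPM are TMM-scaled. A group is called separate where all 3 NRG1 libraries lie on 1 side of all 3 controls. DESeq2 1.42.0 and limma 3.58.1 (voom, trend) were alternatives, with other scalings, filters and each library left out. A comparison of 2 against 2 libraries, coding length and edgeR's older dispersion method were chosen after seeing the data. The script's calls were tested on simulated data with planted changes larger than that of any member. That check therefore says nothing of changes as small as theirs.

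The members and all gene lists were chosen with earlier results of these data known. Genes given with every library's value were, per subunit, the 4 with the smallest p and the 2 highest and 2 lowest per kb, members of fixed roles, and relatives. From each other list came the 3 genes with the smallest p. Some others, RPL7A and MYC among them, were named after their values were seen. Symbols came from a name table, promoters from RefSeq (GRCh38.p14), lengths from GENCODE 29, whose coordinates are not mixed with hg19. At these depths counting error is at most 2.99% for any member in any library. No list or score over the members was tested. Some genes that met these rules are not reported here.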

Additional observations from a re-analysis of the deposited data

How the results depend on the processing

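The median log2 fold change of the ribosomal protein genes stayed within the spread between libraries (SD 0.065 on the log2 scale) in all 18 alternatives run. It ranged from 0.133 (without control replicate 1) to 0.223 (upper-quartile scaling, where the median of all genes also moved to 0.045), and 66 to 71 members were above 0. In 17 of them no member was called, and in the 2 against 2 comparison 1 was (RPL37A). The number of genes called over all genes depended far more on the setting. It was 1 in edgeR, 209 in DESeq2, 21 without a filter on low counts, 2 in limma-voom, 2 with the replicate block, 1 to 50 over the libraries left out (50 without NRG1 replicate 1) and 1547 in the 2 against 2 comparison, and the cause was not tested. With the replicate number as a block, 0 members were called and their median was 0.183. Same-numbered libraries had deviations correlated at 0.02, 0.12 and -0.08, and differently numbered ones at -0.18 to 0.16. Deviations from the mean of 3 libraries are too few to decide whether the numbers pair the libraries. The large minus small subunit median log2 fold change ran from -0.104 to -0.038 over the libraries left out. The median of the levels of members per kb was 1160 CPM by principal transcript, 238 by the union of all exons and 1690 by coding sequence, since the length divides the level.

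Some genes with small differences changed sign, and the cause was not tested. RPS9 was 0.005 in DESeq2 and RPS9, RPL35A and RPL10 were 0.046, 0.039 and 0.003 under upper-quartile scaling. Over the libraries left out the log2 fold change ran from -0.041 to 0.043 for RPS9, -0.035 to 0.040 for RPL35A, -0.121 to 0.077 for RPL10, -0.038 to 0.128 for RPL12, -0.003 to 0.203 for RPS4X, -0.196 to 0.010 for RPL34 and -0.060 to 0.193 for RPL35. It ran from -0.276 to 0.064 for RPL22L1, -0.124 to 0.199 for RPL26L1, -0.041 to 0.172 for RPL7L1 and -0.838 to 0.005 for MYC. In the 2 against 2 comparison RPS9 was 0.084, RPL35A 0.042, RPL10 0.082, RPL35 -0.050, RPL7L1 -0.086, RPL26L1 -0.224 and RPL36AL -0.098.

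With 3 libraries a group, the median SE of a member in edgeR's fit was 0.142. By that test a difference the size of the median member's cannot be told from 0 in a single gene. Close copies limit the levels of 7 members, and strand was not marked.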
